A study of Macaca mulatta with 48 samples.

Results

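The cells described here are the barcodes of the rhesus monkey (Macaca mulatta) testis that carried transcripts of CD3D, CD3E or CD3G, the genes for the invariant chains of the T cell receptor complex. A barcode with at least 300 detected genes, at most 30000 unique molecular identifiers (UMIs, each marking one captured RNA molecule) and at most 3% of its UMIs from the 13 mitochondrial genes was kept when it had 2 or more CD3 UMIs. One CD3 UMI was enough where the barcode also had a UMI of PTPRC (the pan-leukocyte antigen CD45), CD2, IL7R or NKG7. Barcodes with 5% or more of their UMIs from PRM1, PRM2 and TNP1, the nuclear proteins of late spermatids, were left out. The rule found 1376 cells among the 112150 filtered barcodes, a share of 1.23%. The genes named in the rule chose the cells, so their values are given as description.

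Testes of 6 monkeys were dissociated with collagenase and profiled by 10x Genomics droplet sequencing, with 2 prepubertal, 2 adult and 2 aged animals and 1 library per animal and season. The labels name no genotype, treatment or sort, and one testis of each animal was taken outside the breeding season and the contralateral one within it. Season and order of surgery therefore cannot be told apart, and the second testis came from an animal with a single testis. Libraries are named here by age, season and animal, so aged non-breeding 1 is the non-breeding testis of aged animal 1. Of the 12 libraries, 11 held 7210 to 13128 filtered cells and 23072680 to 43405583 UMIs, while adult breeding 2 held 117 cells and 959819 UMIs, and a share of 0 there allows up to 2.56% of cells by the limit of 3 counts.

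T cells recognise peptides held on major histocompatibility complex molecules through a receptor whose variable chains pair with the CD3 chains and CD247, which pass the signal to the kinases LCK and ZAP70 and the adaptors LAT and LCP2. Helper cells carry the coreceptor CD4 and read class II molecules. Cytotoxic cells carry CD8 and read class I molecules, and they kill through granzymes and perforin, a programme they share with natural killer cells. The testis tolerates germ cell antigens that appear only at puberty, and its interstitium, outside the tubules enclosed by Sertoli cells, holds resident macrophages and some lymphocytes.

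Most CD3-gated cells came from 1 library, and outside it the majority had little receptor transcript beside CD3. Aged non-breeding 1 gave 865 cells, 62.9% of all. To check the label with genes that the rule did not use, each cell was asked for 18 other genes of the T cell receptor complex and its signalling (such as CD247, TRAC, LCK, ZAP70, LAT, LCP2, CD28, CD5, CD6 and THEMIS), and a cell with a UMI of at least 2 of them was called receptor-supported. This split was chosen after the data had been seen. It held for 743 of the 1376 cells (54.0%). In aged non-breeding 1 it held for 585 of 865 cells (67.6%, 95% exact Clopper-Pearson interval 64.4 to 70.7%), and in the other 11 libraries for 158 of 511 (30.9%). The gated cells as a whole are therefore called CD3-gated cells and not T cells. A low count of receptor genes does not show that a cell is no T cell, since a shallow T cell can miss them all.

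Gated shares of the filtered cells were 0.803% and 1.08% in prepubertal non-breeding 1 and 2, and 0.624% and 0.576% in prepubertal breeding 1 and 2. They were 0.920% and 0.592% in adult non-breeding 1 and 2, and 0.0853% in adult breeding 1, with 0 of 117 cells in adult breeding 2. Aged non-breeding 1 reached 6.72% and aged breeding 1 only 0.324%, while aged non-breeding 2 and aged breeding 2 held 0.152% and 0.0464%. Aged non-breeding 1 stood above every other library, and the 3 other aged libraries stood below every prepubertal and adult non-breeding library. The receptor-supported share was 0.162 to 0.238% in the prepubertal libraries, 0.379% and 0.282% in adult non-breeding 1 and 2, 4.55% in aged non-breeding 1 and at most 0.121% in the other aged libraries. These intervals and limits cover counting error only.

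**Figure D1:**
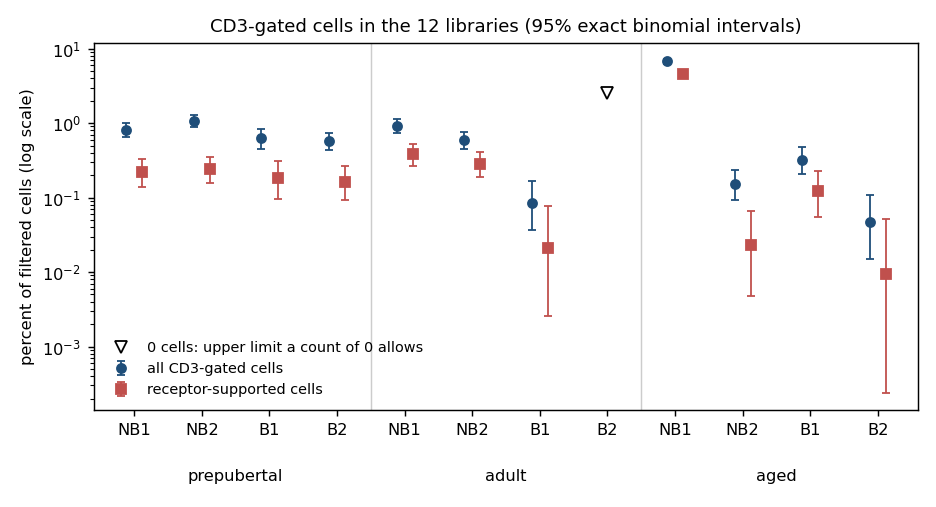
Share of filtered cells (percent, log axis) that were CD3-gated and that were also receptor-supported, for each of the 12 libraries, with 95% exact binomial intervals; the triangle marks the upper limit for the adult breeding 2 library, which had no such cell. Aged non-breeding 1 lies at 6.72% and 4.55%, above all the others.

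The chain that opened the gate differed between the groups of cells. In the unsupported prepubertal cells CD3E gave 277 of the CD3 UMIs against 13 of CD3D and 3 of CD3G, a CD3E share of 94.5%. Supported prepubertal cells had 138 UMIs of CD3D, 23 of CD3E and 33 of CD3G. Within these young testes CD3E was thus the leading chain only in the unsupported cells, where its share ran from 90.8 to 97.1% over the 4 libraries. In aged non-breeding 1 both groups were led by CD3D, with 538, 158 and 213 UMIs of CD3D, CD3E and CD3G in supported cells and 227, 77 and 90 in unsupported cells. Adult unsupported cells had 30, 92 and 11 and were, like the prepubertal ones, led by CD3E.

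The same imbalance was present in cells that the receptor genes did not mark at all. Prepubertal cells with at least 5 UMIs of Sertoli cell markers and no UMI of the receptor genes (29114 cells) held 644 CD3E UMIs, 6 of CD3D and 7 of CD3G, so 98.0% came from CD3E, and 17.9% of these cells had a PTPRC UMI. Gated cells were not left out of this set, so it shares cells with the unsupported group. Prepubertal cells outside the gate with no receptor gene UMI (36431 cells) held 462 CD3E UMIs, 5 of CD3D and 5 of CD3G. Of these UMIs 97.9% came from CD3E. Spermatid-like cells of the 3 other aged libraries (13856 cells) were led by the other chain, with 453 UMIs of CD3D, 54 of CD3E and 7 of CD3G, a CD3D share of 88.1%. A gate on CD3D and CD3G alone kept 912 cells, of which 638 (70.0%) were receptor-supported. These are UMIs summed over cells, and they do not show which chains were seen together in a cell.

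**Figure D2:**
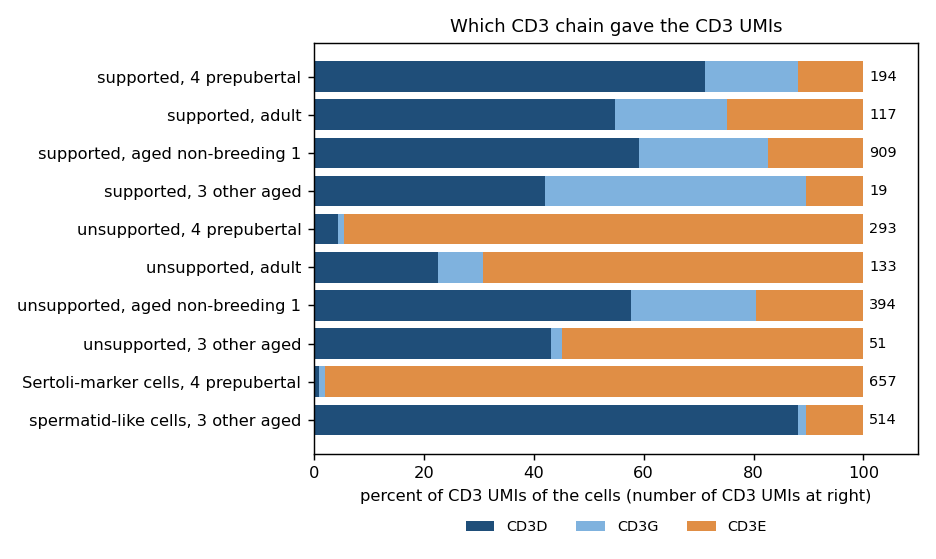
Share of CD3 UMIs (percent) that came from CD3D, CD3E and CD3G in supported, unsupported and comparison cells, with the number of CD3 UMIs at the right of each bar. CD3E makes up 94.5% in unsupported prepubertal cells, against 17.4% in supported cells of aged non-breeding 1. It makes up 98.0% in prepubertal Sertoli-marker cells, a set that shares cells with the unsupported ones.

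Unsupported cells of the young testes carried the transcripts of Sertoli cells, the somatic cells of the tubule that nurse germ cells. Summed over the 7 Sertoli markers, they held 7501 to 9170 CPM (UMIs of a gene or list per 1000000 UMIs) in the 4 prepubertal libraries, against 7889 to 9065 in all other cells of the same libraries and 2303 to 5260 in supported cells. In adult non-breeding 1 the values were 6531 in unsupported, 5018 in supported and 7326 in other cells, and in aged non-breeding 1 they were 439, 431 and 491. The supported cells of the prepubertal testes thus held less of these transcripts than their neighbours in all 4 libraries but were far from free of them. Over the gated cells, spermatid markers summed to 3 to 864 CPM in prepubertal, 573 to 10467 in adult and 12855 to 33943 in aged libraries. Spermatocyte markers ran at 60.2 to 327, 2241 to 4345 and 1906 to 4021. Markers of myeloid cells reached at most 274 CPM in any library, beside at most 256 in the other cells, and up to 376 in supported cells alone. HBA1 and the platelet gene PF4 were at 0. The 6 red blood cell markers together still gave 9015 UMIs in gated cells and the 4 platelet markers gave 19. The part these transcripts play in the gene differences given further on was not tested.

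Depth went with the split. The median was 1496 UMIs in supported and 3892 in unsupported cells. Unsupported prepubertal cells had library medians of 6207 to 9835 UMIs, and 65.3 to 81.3% of them lay in the deepest quartile of their own library. In aged non-breeding 1 the medians were 1487 UMIs in supported and 1542 in unsupported cells. Scrublet called 59 supported cells (7.94%) and 92 unsupported cells (14.5%) as doublets. The number of cells set the called share, which was 5.77 to 10.55% of all filtered cells in the libraries scored. In aged non-breeding 1, 57 of 585 supported and 44 of 280 unsupported cells were called, against 10.4% of its filtered cells. No supported cell was called in any prepubertal library, where 5 to 11 unsupported cells per library were. Whether doublets, free RNA or low expression put CD3 UMIs into the unsupported cells was not tested.

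**Figure D3:**
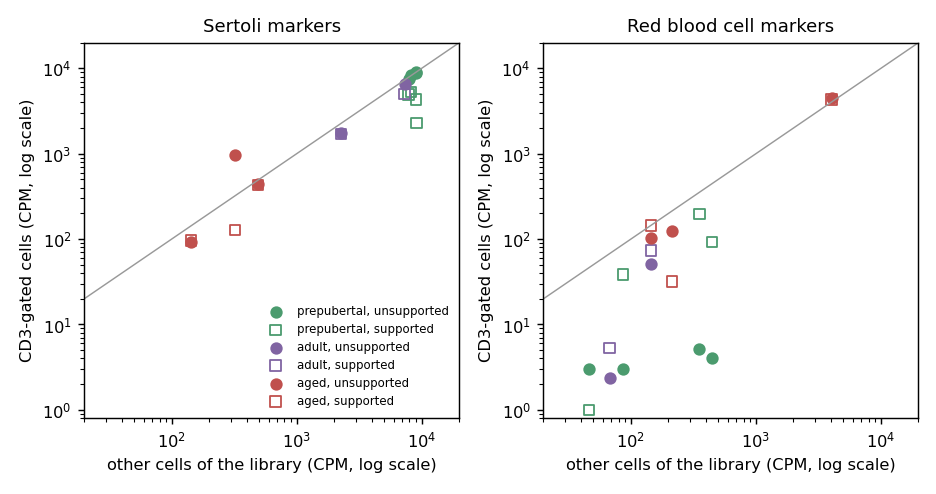
Summed CPM of Sertoli cell markers and of red blood cell markers in unsupported (filled) and supported (open) CD3-gated cells (vertical, log axis) against all other cells of the same library (horizontal, log axis). Libraries with at least 20 gated cells are drawn. The diagonal marks equal levels and a value of 0 is drawn at 1. Unsupported points for Sertoli markers lie near the diagonal, except aged non-breeding 2, at 963 CPM against 323 in other cells. Supported points lie below it in every library drawn, furthest in prepubertal non-breeding 2, at 2303 against 9065. For red blood cell markers the points of the prepubertal and adult libraries lie below it. Those of aged non-breeding 1 lie just above it, at 4458 (unsupported) and 4318 CPM (supported) against 4034 in other cells.

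Cells at the edge of the gate were examined without a test. Inside it, 867 cells (63.0%) had a single CD3 UMI and 509 had 2 or more, and the receptor-supported shares were 49.5% and 61.7%. Just outside it, 1836 cells had 1 CD3 UMI and no UMI of the partner genes, and 8.99% of these had 2 or more of the receptor genes. The limit on spermatid nuclear proteins kept out 243 cells, of which 53.9% had 2 or more receptor genes. The share of these transcripts was 4.998% in the nearest cell inside and 5.016% in the nearest cell outside. The cells kept out by this limit fell unevenly, with 172 in aged non-breeding 1 and 0 in each prepubertal library. They outnumbered the gated cells in aged breeding 2 (27 against 5) and in aged non-breeding 2 (23 against 20). Among cells outside the gate, 1415 of aged non-breeding 1 (11.8%) had 2 or more receptor genes, against 0.446 to 0.935% in the prepubertal libraries, 0 to 5.59% in the adult and 2.06 to 2.72% in the other aged libraries. How many of them are T cells was not tested.

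Supported cells of the prepubertal and adult non-breeding testes and of aged non-breeding 1 carried cytotoxic transcripts. The 3 other aged libraries held too few supported cells to add to this. NKG7, a gene of the cytotoxic list, could bring a cell with 1 CD3 UMI through the gate. It was seen in 39.7% of supported cells of aged non-breeding 1 and 57.0% of those of the 11 other libraries. The gate can thus favour cytotoxic cells, so the levels here and below are description, and its part in them was not tested. GZMB, the granzyme that activates caspases in target cells, ran at 761, 1357, 1740 and 452 CPM in supported cells of prepubertal non-breeding 1, prepubertal non-breeding 2, prepubertal breeding 1 and prepubertal breeding 2. It ran at 556 and 230 CPM in adult non-breeding 1 and adult non-breeding 2 and at 947 in aged non-breeding 1. The ages overlapped, and pooled by age the other cells held 0.70 CPM in prepubertal, 2.58 in adult and 84.4 in aged non-breeding 1 libraries. A GZMB UMI was seen in 54.4% of supported cells of aged non-breeding 1 and in 54.4% of those of the 11 other libraries (medians of 1487 and 1780 UMIs). In myeloid-like cells (no CD3 UMI and at least 2 UMIs of CD14, CD68 and CSF1R), which should lack GZMB, it was seen in 8.61% (median 2262 UMIs) and 0% (median 3172). GZMB in unsupported cells pooled to 14.5 CPM in prepubertal, 101 in adult and 604 in aged non-breeding 1 cells.

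GNLY, a granule protein that permeabilises membranes, pooled to 200 CPM in prepubertal, 151 in adult and 362 in aged non-breeding 1 supported cells, against 0.82, 6.29 and 39.8 in other cells. GZMK, a granzyme of memory-type CD8 cells, pooled to 88.7, 73.6 and 226 CPM, against 0.07, 0.85 and 28.1. CCL5, a chemokine that recruits lymphocytes, pooled to 403, 200 and 187 CPM, against 0.74, 1.48 and 18.6. These granule and chemokine genes stood above the other cells in each pool, with the smallest ratio to them in aged non-breeding 1, where the other cells also held more. CD69, an activation and residency marker, pooled to 288, 98.1 and 264 CPM, against 0.98, 1.89 and 26.2. TRAC, the constant region of the receptor alpha chain and one of the genes that defined support, was seen in 46.8% of supported cells and 1.4% of unsupported cells outside aged non-breeding 1, where 0 of 389 myeloid-like cells had one.

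Levels of KLRB1, LTB, IL7R and CCR7, picked out after their values were seen, were higher in aged non-breeding 1 than in the pooled prepubertal and adult cells. KLRB1, the receptor CD161 of innate-like and memory T cells, pooled to 70.2 CPM in prepubertal, 31.5 in adult and 228 in aged non-breeding 1 supported cells, against 0.24, 0.44 and 24.1 in the other cells of those libraries. LTB, a cytokine of lymphoid tissue, pooled to 44.3, 42.0 and 185, against 0.27, 0.73 and 20.4. IL7R, the survival receptor of memory cells and a gene of the gate, pooled to 25.9, 21.0 and 257, against 0.19, 0.18 and 26.8. The other cells of aged non-breeding 1 thus held more of these transcripts too. CCR7, which guides cells to lymph nodes, was seen among supported cells in aged non-breeding 1 alone, with 20 UMIs and 15.6 CPM, against 1.38 in its other cells. FOXP3, the factor of regulatory T cells, and IL17A had no UMI in any supported cell, and the exact Poisson upper bound for FOXP3 in aged non-breeding 1 was 2.9 CPM. The high library is a single testis, so no spread between animals stands behind these differences. In the edgeR fit of supported cells, aged minus prepubertal, none of 3 innate-like genes passed (median log2 difference 0.07) and none of 3 naive and memory genes (median 1.94).

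Some genes often read as T cell markers were also seen at a like order of level in other cells, though not in every pool. ITGAE, the integrin that holds T cells in epithelia, pooled to 55.4 CPM in prepubertal, 52.5 in adult and 101 in aged non-breeding 1 supported cells, beside 45.1, 72.6 and 95.7 in the other cells. KLRD1, the natural killer receptor CD94, pooled to 137, 56.0 and 50.7 CPM in the supported cells, above 58.7, 14.5 and 11.3 in the others. CTLA4, an inhibitory receptor, pooled to 22.2, 17.5 and 42.9 CPM, beside 0.23, 34.6 and 29.7 in the others. The adult CTLA4 value in supported cells rests on 5 UMIs and does not differ from the others beyond counting error.

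**Figure D4:**
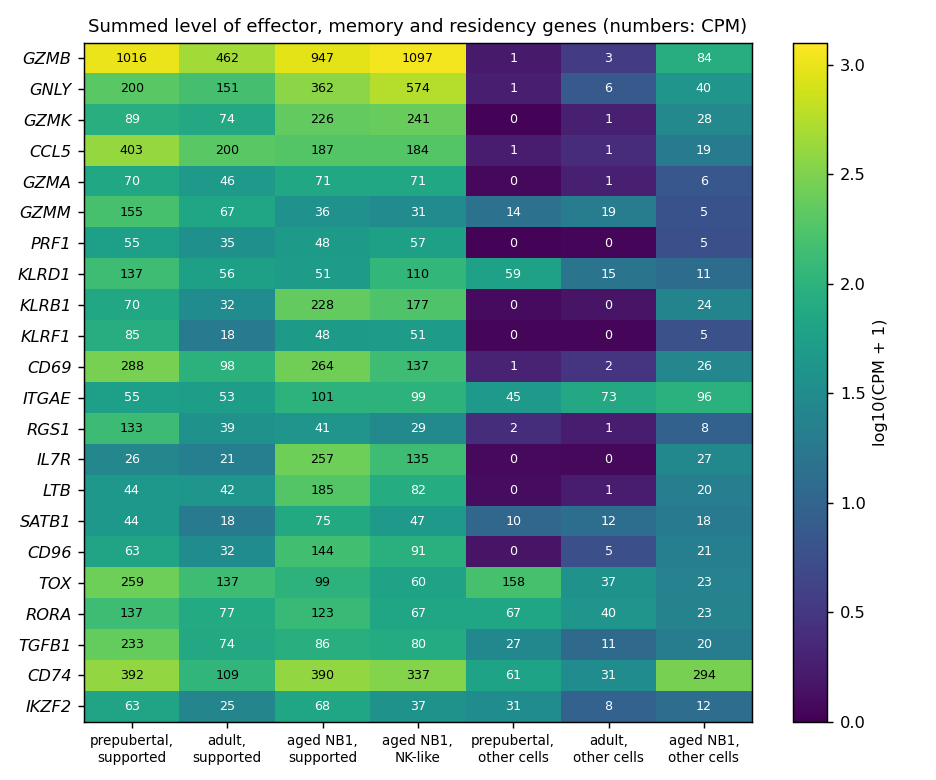
Heat map of CPM (log colour scale) of 22 genes in supported CD3-gated cells of prepubertal, adult and aged non-breeding 1 testes, in natural killer-like cells of aged non-breeding 1 and in other cells. GZMB stands at 1016, 462 and 947 CPM in the supported cells, against 0.70, 2.58 and 84.4 in the other cells.

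Natural killer-like cells, defined as cells with no CD3 UMI and UMIs of at least 2 of NKG7, KLRD1, GNLY and GZMB, numbered 582, of which 416 came from aged non-breeding 1. Their definition uses GZMB and GNLY, and the CD3 gate uses IL7R, so the levels of these genes are not compared. GZMK stood at 241 CPM in them and 226 in the supported cells of aged non-breeding 1, and CCL5 at 184 and 187. LTB stood at 81.6 CPM and 185, and CD69 at 137 and 264. TRAC stood at 97.9 CPM in the natural killer-like cells, and 19.95% of them had a TRAC UMI in aged non-breeding 1 against 8.4% in the other libraries. A TRAC UMI was seen in 5.30% of the myeloid-like and 5.30% of the spermatid-like cells of aged non-breeding 1 (medians of 2262 and 2145.5 UMIs, against 1493.5 in the natural killer-like cells), which is the share to read the 19.95% against.

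Genes that led the supported cells over all other cells of the same library were ranked by their lowest log2 ratio over the 7 libraries with at least 10 supported cells, with 50 CPM added to each value. GZMB led with a lowest log2 ratio of 2.42 and a median of 3.53, followed by S100A4 (2.12 and 3.42), CD52 (1.98 and 3.52), TMSB4X (1.91 and 2.96) and CCL5 (1.79 and 2.82). S100A4 and TMSB4X encode a calcium-binding and an actin-binding protein of motile cells, and CD52 a surface glycoprotein of lymphocytes. ARHGDIB, SRGN, CORO1A and B2M also exceeded the other cells in all 7. The ranking is a description, since the same cells were chosen by their T cell transcripts.

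Transcripts of 2 other blood lineages were found in the gated cells of aged non-breeding 1. HBE1, annotated as an embryonic globin chain, gave 6998 UMIs and was seen in 334 of the 865 cells (38.6%). The globin genes HBB and HBA2 carry no symbol in the annotation and could not be read beside it. Whether reads of other globins fall on HBE1 was not tested. HBE1 was seen in 38.5% of supported, 38.9% of unsupported and 40.9% of natural killer-like cells there, and in 3.8% of supported cells of the other libraries. Summed red blood cell markers stood at 4318 CPM in supported, 4458 in unsupported and 4034 in all other cells of that testis, so HBE1 was spread over the library at a like level. IGKC, the immunoglobulin kappa constant region, gave 3195 UMIs in 96 of the 865 cells, but 5 cells held 96.5% of them, with 28 to 1811 UMIs each. Without these 5 cells the IGKC level fell from 1564 to 55.4 CPM. Of the 5, 4 were receptor-supported, 4 had a single CD3 UMI and none had a CD4 or CD8 UMI. These cells held 20.3% of the 74 JCHAIN and 34.5% of the 29 MZB1 UMIs, genes of the B and plasma cell list, so other gated cells held them too. A feature without a symbol, ENSMMUG00000044861, gave 6373 UMIs in this library, of which the IGKC cells held 0.99%. The 5 cells highest in that feature held 98.9% of them.

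Variable genes of the receptor were barely sampled. The annotation names 50 of them, 18 had a UMI in gated cells, and they gave 53 UMIs in all, of which 32 were in aged non-breeding 1. Its 32 UMIs fell on 12 genes, with TRBV11-1 at 9, TRAV5 at 4 and TRGV1, TRGV10 and TRBV14 at 3 each. At this depth neither a dominant variable gene nor its absence could be shown. TRBC1, TRBC2, TRDC, TRGC1 and TRGC2 carry no symbol in the files used here and were not analysed.

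Coreceptors went unseen in most cells. Of the 1376 gated cells 1171 (85.1%, 95% exact interval 83.1 to 86.9%) had no UMI of CD4, CD8A or CD8B, 155 had CD8, 49 had CD4 and 1 had both. Of the 743 supported cells 594 (79.9%, 76.9 to 82.8%) had neither, 109 (14.7%) had CD8 and 40 (5.4%) had CD4. CD8-positive cells outnumbered CD4-positive cells among supported cells in aged non-breeding 1 (74 against 35) and over the other 11 libraries (35 against 5). With NKG7 in the gate, CD8-positive cells can be favoured, so these counts are description. The share with neither in supported cells was 60.9%, 66.7%, 84.6% and 68.8% in prepubertal non-breeding 1, prepubertal non-breeding 2, prepubertal breeding 1 and prepubertal breeding 2, 77.1% and 86.2% in adult non-breeding 1 and adult non-breeding 2, and 81.4% in aged non-breeding 1.

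A missing coreceptor UMI does not show that a cell lacks the coreceptor. Supported cells of aged non-breeding 1 lacked all 3 genes in 88.5% of cells under 1000 UMIs and in 81.1% of cells with 4000 or more, so the share stayed high in deep cells. As background, 87.1% of natural killer-like, 80.0% of myeloid-like and 99.4% of spermatid-like cells lacked them, the 540 myeloid-like cells having CD4 in 19.8%. Thinned to 1000 UMIs per cell, 79.1% of prepubertal, 89.0% of adult and 88.0% of aged supported cells had neither, with 18, 23 and 57 cells left out as too shallow (68.4, 80.3 and 81.4% without thinning). Over all gated cells the thinned shares were 95.2, 94.5 and 88.9%, with 20, 32 and 93 cells left out (90.3, 87.0 and 83.0% without thinning). The difference in the mean thinned share per animal was 0.02 percentage points for adult minus prepubertal (2-sided exact permutation p = 1, with 2 animals per age and a smallest possible p of 0.3333). It was -6.36 for aged minus adult and -6.34 for aged minus prepubertal, where the aged value is that of 1 animal and no test is given. These differences are over all gated cells. In supported cells aged minus prepubertal turned to 8.87, with aged animal 1 at 88.0% and the prepubertal animals at 79.0% and 79.2%. Aged minus adult turned to 0.57, but there adult animal 1 alone (87.4%) stood for the adults. Adult animal 2, at 92.4%, had 14 supported cells left after thinning, under the 20 required. Both adult animals lay above both prepubertal ones in supported cells, unlike in all gated cells, and this was not tested.

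In aged non-breeding 1 the CD8-positive cells, pooled, had higher levels of cytotoxic transcripts than the rest. In its supported cells GZMB stood at 2286 CPM (95% exact Poisson interval 2043 to 2550) in CD8-positive cells, 797 (743 to 853) in cells with neither coreceptor and 624 (475 to 804) in CD4-positive cells. These intervals cover counting error only and leave out the spread between cells, which was wide for other genes of this library. GNLY stood at 612, 332 and 328 CPM, CCL5 at 356, 170 and 127, and KLRD1 at 150, 39.2 and 31.7. MAMU-DRA, the alpha chain of the class II molecule DR that activated T cells can carry, stood at 883, 314 and 222. KLRB1 went another way, with 150 CPM in CD8-positive, 242 in neither and 190 in CD4-positive cells, and CD40LG, the helper signal to B cells, stood at 0, 10.5 and 42.3. These are counts of 1 library, so no test between animals stands behind them.

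**Figure D5:**
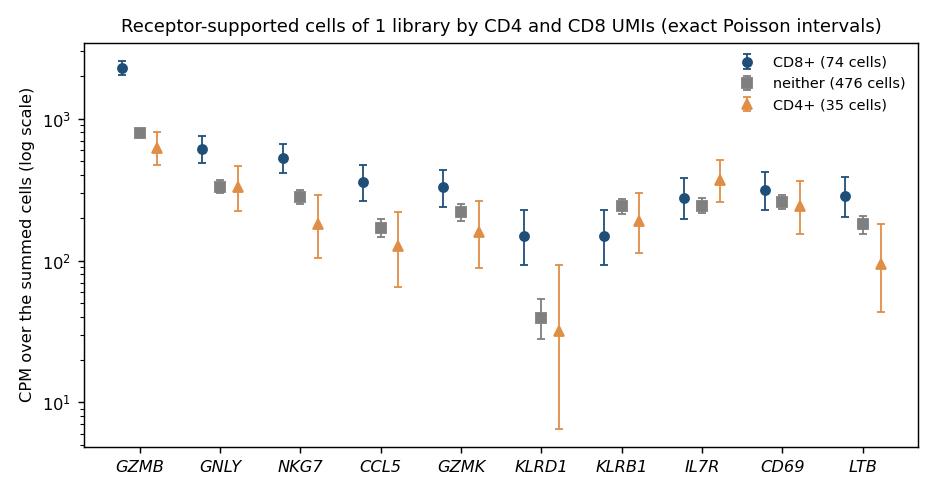
CPM of 10 genes in receptor-supported cells of aged non-breeding 1, split by CD8 UMIs, neither coreceptor and CD4 UMIs, with 95% exact Poisson intervals. GZMB falls from 2286 in CD8-positive to 797 in neither and 624 in CD4-positive cells.

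Where the subsets could be compared over libraries, the cells with neither coreceptor held less GZMA, GZMB and CCL5. Summed counts of the 3 libraries with at least 10 gated cells in both subsets (prepubertal non-breeding 2, adult non-breeding 1 and aged non-breeding 1, each of another age) were tested with edgeR's quasi-likelihood test with the library as a block, and 29 of 8984 genes passed an adjusted p of 0.05 (0.323%), 9 of them higher (0.1%) and 20 lower (0.223%) in the neither cells. Of the 12 genes tested from the CD8 and cytotoxic list 6 were lower and none higher (median log2 difference -2.11, against 0.28 over all genes). CD8A and CD8B define the split and NKG7 is a gate gene, which leaves GZMA, GZMB and CCL5. The median still includes the split and gate genes, so it is description only. GZMB stood at 433, 2057 and 4191 CPM in CD8-positive cells of adult non-breeding 1, aged non-breeding 1 and prepubertal non-breeding 2, and at 230, 676 and 83.5 in the neither cells. It was lower in all 3 libraries (log2 difference -2.25, SE 0.47, edgeR adjusted p = 0.00217). GZMA stood at 59.1, 92.3 and 717 against 17.1, 54.0 and 4.9 (-2.48, SE 0.60, adjusted p = 0.0220), and CCL5 at 217, 332 and 993 against 68.3, 157 and 34.4 (-2.07, SE 0.54, adjusted p = 0.0458).

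The other genes lower in the neither cells were of several kinds, from RAD51AP2, a gene of DNA recombination (-2.89, SE 0.73, edgeR adjusted p = 0.0362), to genes of leukocytes. CORO1A, an actin regulator of leukocytes, differed by -2.57 (SE 0.57, edgeR adjusted p = 0.00803), CD52 by -2.41 (SE 0.55, adjusted p = 0.00825), TMSB4X by -2.12 (SE 0.38, adjusted p = 6.03e-05) and B2M, the light chain of class I molecules, by -1.43 (SE 0.33, adjusted p = 0.00971). B2M stood at 2067, 4280 and 7831 CPM in CD8-positive cells of adult non-breeding 1, aged non-breeding 1 and prepubertal non-breeding 2 against 492, 2988 and 1248 in the neither cells. Among the 9 higher genes was LDHC, the lactate dehydrogenase of germ cells (2.06, SE 0.55, adjusted p = 0.0494), at 138, 1670 and 0 CPM in CD8-positive and 1733, 2113 and 14.7 in neither cells. IGKC was higher by 4.81 (adjusted p = 0.000503), a value that rests on the cells of aged non-breeding 1 described above, since both subsets of the other libraries were at 0. The largest rise was that of ENSMMUG00000044861 (6.35, SE 0.92, edgeR adjusted p = 1.35e-08), the feature named above whose UMIs in aged non-breeding 1 lay in few cells. In prepubertal non-breeding 2, 18 of 110 neither cells and 9 of 11 CD8-positive cells were receptor-supported. The counts were 27 of 72 and 8 of 11 in adult non-breeding 1, and 476 of 716 and 74 of 110 in aged non-breeding 1. The mix was thus alike in aged non-breeding 1 only. In the fit over these libraries a difference in cytotoxic genes and one in the mix of cells within the subset cannot be told apart. DESeq2 called 2 genes, both lower (0.0223%), and 2 of 1993 genes passed in edgeR, both lower (0.1%), when CD3E did not count towards the gate, where GZMB differed by -0.53. Without prepubertal non-breeding 2 the count of calls was 3 and without adult non-breeding 1 it was 6, and GZMB differed by -1.17 (edgeR adjusted p = 0.971) without the former. All these counts include CD8A and CD8B, which define the split, wherever they passed. Over the other settings GZMB kept its call in 6 of 9, GZMA in 4 of 8 and CCL5 in 2 of 9.

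Season was compared in share first. The breeding testis held a smaller gated share than the non-breeding testis of the same animal in the 5 animals where both libraries could show it. The limit on spermatid nuclear proteins weighed unevenly on these pairs. It kept out 27 cells beside 5 gated in aged breeding 2 and 23 beside 20 in aged non-breeding 2. In aged animal 1 it kept out 13 beside 24 (breeding) and 172 beside 865 (non-breeding). In adult animal 1 it kept out 5 beside 8 (breeding) and 0 beside 85 (non-breeding). The season difference with these cells added was not tested. In adult animal 2 the breeding library had 0 of 117 cells, which allows up to 2.56% and so shows no direction against 0.592%. With that 0 entered through the added 0.5 cells, the mean log2 difference over 6 animals was -1.84. Group means were 0.939% ± 0.193 (SD, n = 2) in non-breeding and 0.5999% ± 0.0343 in breeding prepubertal testes, 0.756% ± 0.232 in non-breeding adult testes, with 0.0853% in adult breeding 1 as the one breeding value, and 3.44% ± 4.65 and 0.185% ± 0.196 in aged testes. Permuting season within age, without the pairing of testes, gave a 2-sided exact permutation p of 0.0833. With the animal as a block the exact permutation p was 0.03125, the smallest that 6 pairs allow, and this p needs the pair of adult animal 2. Without that animal the paired difference was -2.11 (lower in 5 of 5, exact permutation p = 0.0625, the smallest that 5 pairs allow), so no paired test of measured shares could pass. Without aged non-breeding 1 the unpaired difference shrank to -0.94 (exact permutation p = 0.278), and without aged animal 1 the paired one was -1.34 (exact permutation p = 0.0625). For supported cells the paired difference was -1.70 over 6 animals (exact permutation p = 0.125) and -2.15 without adult animal 2 (lower in 5 of 5, exact permutation p = 0.0625).

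Age was compared over animals. Gated shares, both testes pooled, were 0.730% and 0.843% in the prepubertal, 0.499% and 0.586% in the adult and 4.38% and 0.105% in the aged animals. The aged animals lay on either side of all the others. The log2 differences were -0.53 for adult minus prepubertal (p = 0.3333), 0.33 for aged minus adult (p = 1) and -0.20 for aged minus prepubertal (p = 1) by 2-sided exact permutation tests, which cannot go below 0.3333 with 2 animals per age. None of these directions was stable. Adult minus prepubertal was 0.22 in supported cells and 0.32 with CD3E not counted, aged minus adult ran from -2.35 to 3.01 and aged minus prepubertal from -2.88 to 2.48 with 1 animal left out. Aged animal 2 had 25 gated cells and aged animal 1 had 889. For supported cells the 2 aged animals stood at 2.93% and 0.0167%, against 0.199 to 0.278% in the 4 others, so no rise or fall with age was shared by the aged animals.

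Gene levels were compared between ages on summed counts per animal. For aged minus prepubertal, 3735 of 11665 genes passed an adjusted p of 0.05 in edgeR's quasi-likelihood test (32%), 2172 higher (18.6%) and 1563 lower (13.4%), and the median over all genes was -0.07 on the log2 scale. For adult minus prepubertal, 1420 passed (12.2%), 1033 higher (8.86%) and 387 lower (3.32%). Without aged animal 1 the aged minus prepubertal count was 789, and without prepubertal animal 2 the adult minus prepubertal count was 0. For aged minus adult none passed in edgeR, with 967 genes at an unadjusted p under 0.05 and 8 calls, all lower, by DESeq2 (0.0686%). The first 2 comparisons share the prepubertal animals. These sums mix supported and unsupported cells in unequal parts, with 22.1 to 28.9% supported in prepubertal libraries, 67.6% in aged non-breeding 1, 15% in aged non-breeding 2 and 20% in aged breeding 2, so a change of that mix and a change of level per cell cannot be told apart.

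Lymphocyte genes were among those higher in the aged sums. Of 12 genes tested from the CD8 and cytotoxic list 8 were higher and none lower (median 2.05), where 18.6% of all genes were higher. The gate gene NKG7 was 1 of the 8, and the median includes it. Of 15 receptor and signalling genes 6 were higher, among them LCK, LCP2 and GRAP2 beside the gate genes CD3D and CD3G. GZMB stood at 132 and 136 CPM in the prepubertal, 229 and 172 in the adult and 783 and 391 in the aged animals (aged minus prepubertal log2 difference 2.37, SE 0.50, edgeR adjusted p = 0.0135). GNLY stood at 5.8 and 42.5, 58.7 and 75.8, and 300.1 and 363.6 CPM (3.99, SE 0.78, adjusted p = 0.0110). LTB stood at 9.6 and 2.5 CPM in the prepubertal but at 142 and 0 in the aged animals (4.05, SE 1.18, adjusted p = 0.0351), so of the aged animals only animal 1 lay above the prepubertal ones. Without aged animal 1 GZMB differed by 1.52 (edgeR adjusted p = 0.0899). LCP2 was of the same kind, at 5.8 and 3.3 CPM against 50.5 and 0 (3.15, SE 0.95, adjusted p = 0.0384).

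The same genes did not pass once the cells were held to the receptor-supported ones. In that fit, with 5 animals of which 1 was aged and assumed to vary like the others, 0 of 6034 genes passed for aged minus prepubertal (0%; 746 at an unadjusted p under 0.05), 0 for adult minus prepubertal (0%; 587) and 1 for aged minus adult (0.0166%; 201). GZMB differed by 0.10 (SE 0.76), GNLY by 1.14 (SE 1.01) and CCL5 by -0.86 (SE 0.75). LCK differed by 0.03 (SE 0.72), but it is one of the genes that defined support, so its value is description only. KLRB1 and LTB kept positive values of 1.92 (SE 0.78, adjusted p = 0.375) and 2.18 (SE 0.82, adjusted p = 0.356). The 1 gene that passed for aged minus adult was HBE1 (9.96, SE 1.01, adjusted p = 0.0377), at 3240 CPM in gated cells of aged animal 1 and 0 in those of aged animal 2.

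Markers of the other cells of the testis also differed between ages in the gated sums. The 7 Sertoli markers had 5 lower and none higher in aged minus prepubertal (median -3.16, where 13.4% of all genes were lower and 18.6% higher), with AMH, the hormone of immature Sertoli cells, at 4521 and 4943 CPM in the gated cells of prepubertal and 12.97 and 34.3 in those of aged animals (-7.71, SE 1.16, edgeR adjusted p = 0.00731). Spermatid markers had 6 of 9 higher, of which PRM1, PRM2 and TNP1 are bounded by the gate, and spermatocyte markers 4 of 7, such as LDHC at 132 and 10.6 against 2124 and 2669 CPM (5.24, SE 1.10, adjusted p = 0.0136). For adult minus prepubertal 6 of 7 spermatocyte markers were higher, where 8.86% of all genes were, and none of the 15 receptor or 12 cytotoxic genes passed, a count near that background. Among the 10 largest fitted rises, ODF3L1 and CARTPT were at 0 to 0.958 CPM in the prepubertal animals, ODF3L1 reaching 75.9 to 117 and CARTPT 172 to 220 in the aged ones. PCP4, FYB2 and CPXM1 were at 0 in both adult animals and at 54.6 to 104 CPM in the prepubertal ones.

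Of the 6 proliferation genes tested 3 (TOP2A, CDK1 and BIRC5) were higher in aged than in prepubertal sums, where 18.6% of all genes were, 3 were higher in adult than in prepubertal sums (median 3.09, where 8.86% of all genes were), and none of the 6 passed for aged minus adult (median -0.16). These genes also serve meiotic cells, and TOP2A stood at 17.3 and 5.7 CPM in the prepubertal, 158 and 100 in the adult and 75.5 and 48.02 in the aged animals. Of 12 immediate early genes, which mark recent stimulation and also dissociation, 9 were lower in the aged sums (median -3.07, with 13.4% of all genes lower) and 7 in the adult ones (median -2.34, with 3.32% lower), and none passed for aged minus adult (median -0.57). FOS stood at 1771 and 2189 CPM in the prepubertal, 266 and 124 in the adult and 171 and 68.6 in the aged animals (aged minus prepubertal -3.75, SE 0.64, edgeR adjusted p = 0.0086). EGR1 fell likewise, from 78.6 and 163 to 1.9 and 0 CPM (-5.81, SE 0.79, adjusted p = 0.0072). In supported cells alone FOS differed by -2.33 (SE 0.79, adjusted p = 0.326).

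Naive and memory genes gave 3 of 6 higher in aged minus prepubertal, one of them the gate gene IL7R and the others LEF1 and NOSIP. LEF1, a factor of naive T cells that other tissues also use, stood at 4.8 and 0.8 CPM in the prepubertal, 29.4 and 27.6 in the adult and 39.8 and 27.4 in the aged animals, and was higher in adult sums too (3.39, SE 0.75, edgeR adjusted p = 0.0313). Against the 18.6% of all genes that were higher and 13.4% that were lower, inhibitory receptors had 2 of 5 higher (TIGIT and CD96), residency genes 1 of 3 (ITGAE), cytokines 3 of 5 (LTB, CCL3 and CCL5), and innate-like genes 2 higher (KLRB1 and IL23R) and 1 lower (SOX4) of 6. MHC class II genes had none of 3 past the threshold.

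Between seasons no gene passed in the gated cells. Over the 9 libraries with at least 20 gated cells, 0 of 9529 genes passed in edgeR (0%), 158 had an unadjusted p under 0.05, and DESeq2 called 3, all lower in the breeding season (0.0315%). With the animal as a block the edgeR count was again 0. The receptor list had a median of -0.55 over 11 genes and the cytotoxic list -0.57 over 8, against -0.20 over all genes, and spermatid markers one of -1.78 over 9 genes. The CD3 chains of the receptor list and NKG7 of the cytotoxic list are gate genes, and PRM1, PRM2 and TNP1 are bounded by the gate. Medians of these lists between seasons are therefore description only. GZMB differed by -1.27 (SE 0.46, edgeR adjusted p = 0.9996) for breeding minus non-breeding. In supported cells, with at least 10 per library, 0 of 5415 genes passed (0%; 282 at an unadjusted p under 0.05). There the cytotoxic list turned direction, with a median of 0.33 over 10 genes, against -0.24 over all genes. The receptor list had a median of 0.18 over 14 genes. Its genes chose the cells in both seasons, so this value is description only.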

How the data were processed

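Per the submitters' processing notes, reads were processed with Cell Ranger 9.0.0 on Mmul_10, and the authors deposited 1 matrix of UMI counts per library. The treatment of intronic reads is not stated in the sources read. No deposited label names a matrix, so age, season and animal came from the study's library sheet, which calls the youngest age puberty where the 48 labelled samples say prepuberty.

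The 12 count matrices were filtered and gated as described, and CPM are summed UMIs per 1000000. The members, lists and tests were chosen with earlier results of these data known. The gated cells were taken as deposited, without correction for free RNA, and Scrublet (scanpy 1.11.5) marked doublets (0.8% per 1000 cells, libraries of at least 500 cells) but kept. Counts were summed per animal (age), library (season) or library and coreceptor subset, with at least 20 cells (10 for subsets), and tested with edgeR 4.0.16 (quasi-likelihood, TMM, Benjamini-Hochberg) in R 4.3.3; DESeq2 1.42.0 was an alternative. Age fits used both testes of an animal pooled. Steps were tested on simulated data. Shares were compared as log2 with 0.5 cells added, by exact permutation. Python 3.11.15, numpy 2.4.6, scipy 1.17.1 and pandas 2.3.3 were used.

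The 2 testes of an animal share its number, which pairs them; the prepubertal libraries, the ones with gated cells enough to check it, gave a correlation of same-animal deviations of 0.217. Between ages the numbers mark different animals. Of the 1376 gated cells, 35 barcodes (2.54%) recurred in another library, against 2.85% of filtered cells, and no barcode was gated in 2 libraries. The text names the genes of the lists and up to 10 genes per direction with the largest fitted change that passed and whose groups did not overlap. Features without a symbol were tested under their identifiers, while list genes whose symbol the files do not carry, such as TRBC1 and KLRK1, were not analysed, and some items are not reported here. Alternatives covered the gate, doublets, filters, scaling, DESeq2, the replicate block and each library or animal left out.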

Additional observations from a re-analysis of the deposited data

Results flagged for a closer look

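In 18 groups of 4 libraries of one age, the library farthest from the others was compared with the range of its group, a comparison that chance alone passes in about 1 in 20 groups. Aged non-breeding 1 passed it in 3 values. Its CD3-gated share was 6.72%, beside 0.0464 to 0.324% in the other aged libraries. Its receptor-supported share was 4.55%, beside 0.00927 to 0.121%. Red blood cell markers in its gated cells summed to 4370 CPM, beside 100.8 to 238 CPM. What sets this library apart was not tested.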

How the results depend on the processing

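Precision is limited by 2 animals per age, by 20 to 85 gated cells in most libraries and by cells of which 63.0% hold a single CD3 UMI. Among the values answering a comparison, 107 were labelled the same, 29 moved, 19 reversed and 2 became stronger. A count of genes was labelled the same when its size was near the main count, whichever genes it held. Some settings repeat the main fit. A minimum of 10 cells kept the same animals and libraries, and between subsets age took the place of the library block, each library being of another age. Among named genes, 514 stayed, 247 lost the call and 10 reversed. In no reversed or moved value was the cause tested.

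Gated shares by age reversed for adult minus prepubertal with supported cells (0.22) and with CD3E not counted (0.32). Aged minus adult reversed without aged animal 1 (-2.35) and with supported cells (-0.0241), and was 3.01 without aged animal 2. Aged minus prepubertal reversed without aged animal 2 (2.48), with 2 CD3 UMIs required (0.16), without spermatid-like cells in the denominator (0.49), with supported cells (0.19) and with CD3E not counted (1.26), and was -2.88 without aged animal 1. The season difference passed with the replicate block (-1.84, exact permutation p = 0.03125, with 0 of 117 cells in adult breeding 2 entered as a share). In the unpaired test it passed without aged non-breeding 2 (-2.75, exact permutation p = 0.00926). There aged non-breeding 1 alone stood for the aged non-breeding testes, and adult breeding 2 was entered as a share too. The season difference was -0.94 without aged non-breeding 1 in the unpaired test. With the block it did not pass under 2 CD3 UMIs (p = 0.0625), supported cells (p = 0.125) or CD3E not counted (p = 0.09375), all by exact permutation.

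The share with neither coreceptor, adult minus prepubertal, reversed without prepubertal animal 2 (-0.15), without adult animal 2 (-1.98), at 500 UMIs (-0.25), without thinning (-2.66) and without doublets (-0.0773), and was at most 2.02 leaving out an animal. Aged minus adult reversed at 500 UMIs (0.15), where aged animal 2 (97.0%) entered beside aged animal 1 (94.1%). It reversed with supported cells (0.57), where adult animal 2 did not enter, and with CD3E not counted (6.16). Aged minus prepubertal reversed with supported cells (8.87) and with CD3E not counted (10.1). The change at 500 UMIs and that of aged minus adult in supported cells thus go with a change of animals.

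The 1420 genes of adult minus prepubertal became 2676 without a filter on low counts, and 0 with supported cells or CD3E not counted; leaving out an animal gave 0 to 2296 (0 without prepubertal animal 2, 2296 without adult animal 1, 813 without adult animal 2, 820 and 891 without aged animals 1 and 2). The 0 of aged minus adult became 5 with 2 CD3 UMIs, 275 without the filter, 8 by DESeq2, 1 with supported cells and 2 with CD3E not counted (0 to 1 leaving out an animal). The 3735 of aged minus prepubertal became 1757 with 2 CD3 UMIs, 0 with supported cells and 2 with CD3E not counted (789 to 5435 leaving out an animal, 789 and 1897 without aged animals 1 and 2, 2382 and 1043 without prepubertal animals 1 and 2). The 0 between seasons became 24 without the filter and 3 by DESeq2, and stayed 0 with the replicate block and without any 1 library. The 29 between subsets became 17 without doublets, 14 without the filter, and 2 by DESeq2 or with CD3E not counted (3 to 21 leaving out a library, 6 without adult non-breeding 1 and 3 without prepubertal non-breeding 2). Counts between subsets include CD8A and CD8B, which define the split, wherever they passed.

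Single genes of aged minus prepubertal reversed with CD3E not counted for CCL5 (-0.69), GZMA (-0.34), LCK (-0.20), NKG7 (-0.53) and PRF1 (-0.13), with supported cells for CCL5 (-0.86) and NKG7 (-0.45), and without aged animal 1 for GZMK (-0.84, against 4.09 without aged animal 2) and LCP2 (-4.62, against 3.70). IGKC between subsets reversed by DESeq2 (-2.43). Fits with too few libraries or cells were not made: between subsets with 2 CD3 UMIs, 20 cells or supported cells, and between seasons with 2 CD3 UMIs, supported cells of at least 20 per library or CD3E not counted.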
